A study of Mus musculus with 20 samples.

Results

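Intergenic peaks within 100 kb of a protein-coding gene were the regions of open chromatin that lay more than 1000 bp from every annotated transcription start site (TSS), whose centre base fell in no annotated gene body, and whose distance to the nearest TSS of a protein-coding transcript was at most 100000 bp. Of the 102373 listed peaks, 25589 met this rule (25.0%, Wilson interval 24.7 to 25.3). They made up 33.4% of the 76716 peaks more than 1000 bp from a TSS (distal peaks). They also made up 74.2% of the distal peaks in no gene body. The remaining 8902 of those lay farther than 100 kb from a protein-coding TSS and are referred to as gene-desert peaks, and 36829 distal peaks were intronic.

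The peaks came from ATAC-seq, in which Tn5 transposase inserts sequencing adapters into accessible DNA. The cells were mouse embryonic stem (ES) cells of the line ZHBTc4, where Pou5f1, the gene of OCT4, is under a Tet-Off promoter that doxycycline (dox) switches off. All cells carried YPet-MD, a fluorescent cell cycle reporter, and either SNAP-MD-OCT4, which is degraded as cells leave mitosis, or SNAP-MD*-OCT4, whose mutated degron leaves it stable. Both OCT4 fusions were expressed from lentiviral vectors with the weak, constitutive PGK promoter, in transduced populations sorted for a narrow range of SNAP signal. The 16 libraries behind the list were from cells treated with 1 µg/ml dox for 40 h and sorted by cell cycle phase (late S/G2, S, late G1 and early G1), with 2 libraries for each construct and phase. Another 4 libraries, from unsorted cells of both constructs without dox, did not enter the list. The peaks of the 16 libraries had been merged to 1 set of coordinates, with no score and no value per library. A region open in 1 library therefore counts like a region open in all, the depth is unknown, no replicate error exists, and MD-OCT4 could not be compared with MD*-OCT4, nor one phase with another. Intervals are 95% intervals. They treat peaks as independent, which neighbouring peaks are not, so they and the p-values are too narrow and too small, and they cover counting error only.

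Distal open regions in ES cells include enhancers, which are bound by transcription factors and act on promoters over a distance, and insulators, which are bound by CTCF. CTCF halts the cohesin complex that extrudes chromatin loops, and it does so in an orientation set by the direction of its motif. In naive ES cells OCT4 and SOX2 bind many enhancers together on a composite element of a SOX motif followed by an octamer. KLF4 and KLF5, ESRRB and STAT3 (the effector of LIF signalling) occupy enhancers of the same network. AP-2 and TEAD factors are best known from the trophoblast and other epithelial cells, and AP-1 factors respond to growth signals.

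The 10 short consensus motifs were searched on both strands. The letters were ATGCAAAT for the OCT octamer, CCATTGTT for SOX, GGGTGTGG for KLF, TCAAGGTCA for ESRRB, TTCCNGGAA for STAT3, GCCTNAGGC for AP-2, ACATTCCA for TEAD and TGANTCA for AP-1. The OCT4::SOX2 composite element was searched with up to 2 mismatches and CTCF with up to 1. The octamer is contained in OCT4::SOX2, and the SOX motif shares bases with its SOX portion, so these 3 are not independent of each other. A match is a description of letters and not a site shown to be bound, and divergent sites are missed.

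The following sequences are shown because they are the OCT4::SOX2 matches in peaks nearest to a pluripotency gene, with the match in capitals and 25 bases on either side. They are from the RefSeq copy of GRCm38 and are written 5′ to 3′ on the strand of the match, which was the minus strand for all 6.
Dppa3, 1603 bp upstream, chr6:122624656-122624720: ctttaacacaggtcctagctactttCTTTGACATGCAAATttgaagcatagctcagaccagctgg
Pou5f1, 1889 bp upstream, chr17:35504024-35504088: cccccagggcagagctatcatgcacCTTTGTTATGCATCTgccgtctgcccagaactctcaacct
Utf1, 1865 bp downstream, chr7:139945656-139945720: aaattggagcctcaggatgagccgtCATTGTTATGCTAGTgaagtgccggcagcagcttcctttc
Lefty2, 4285 bp upstream, chr1:180888801-180888865: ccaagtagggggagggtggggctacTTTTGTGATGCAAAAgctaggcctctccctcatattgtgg
Klf5, 55024 bp downstream, chr14:99354184-99354248: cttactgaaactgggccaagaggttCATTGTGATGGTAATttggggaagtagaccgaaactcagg
Klf5, 56052 bp downstream, chr14:99355507-99355571: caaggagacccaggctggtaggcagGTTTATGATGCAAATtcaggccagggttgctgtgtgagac

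Distances are from the centre of the peak to the nearest protein-coding TSS of the gene. Enhancers with an OCT4 and SOX2 element are known just upstream of Pou5f1 and just downstream of Utf1, which encodes a chromatin protein of undifferentiated ES cells. Dppa3 encodes a maternal factor of naive cells, Lefty2 an inhibitor of Nodal signalling, and Klf5 a zinc finger factor of the naive state. The Dppa3 match had 1 mismatch to the consensus, and the other 5 had 2. Over all near-gene intergenic peaks, searched along their whole length, the best match was exact in 1 peak, had 1 mismatch in 34 and had 2 in 348. The exact match lay downstream of Sox9, a developmental regulator of cartilage and the gonad.
Sox9, 29083 bp downstream, chr11:112811241-112811305, plus strand: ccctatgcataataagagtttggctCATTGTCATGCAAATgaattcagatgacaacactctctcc

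CTCF matches were far more frequent, and those with no mismatch nearest to pluripotency genes are shown next, again on the strand of the match, which was the plus strand for all 3. Zfp42 encodes REX1, the widely used naive marker, and Tbx3 a T-box factor of the naive network.
Dppa3, 33930 bp downstream, chr6:122660644-122660707: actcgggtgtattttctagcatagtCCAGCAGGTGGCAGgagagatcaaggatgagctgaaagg
Tbx3, 70306 bp downstream, chr5:119741288-119741351: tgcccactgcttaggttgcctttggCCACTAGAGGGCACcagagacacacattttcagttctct
Zfp42, 54996 bp downstream, chr8:43251815-43251878: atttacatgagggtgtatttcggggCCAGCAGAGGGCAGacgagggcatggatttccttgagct

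Some CTCF matches lay within repeats. The match upstream of Pou5f1 and one downstream of Zfp42 shared the same 14 letters, and both had 1 mismatch to the consensus. Of the bases shown, 100% were soft-masked as repeats at Pou5f1 and 85.9% at Zfp42.
Pou5f1, 9130 bp upstream, chr17:35496684-35496747, plus strand: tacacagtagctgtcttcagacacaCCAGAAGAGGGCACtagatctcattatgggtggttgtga
Zfp42, 49120 bp downstream, chr8:43257810-43257873, minus strand: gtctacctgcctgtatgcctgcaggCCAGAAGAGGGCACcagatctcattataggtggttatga

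Only 2 peaks nearest to a pluripotency gene held at least 3 different motifs, those just upstream of Pou5f1 and 56052 bp downstream of Klf5. A stretch of 300 bp of each is given on the plus strand, with every match in capitals, so that a match on the minus strand appears as its complement. The Pou5f1 stretch held, from left to right, AP-1, KLF and OCT4::SOX2. The Klf5 stretch held OCT4::SOX2 with an intact octamer, and then KLF.
Pou5f1 upstream, chr17:35503804-35504103: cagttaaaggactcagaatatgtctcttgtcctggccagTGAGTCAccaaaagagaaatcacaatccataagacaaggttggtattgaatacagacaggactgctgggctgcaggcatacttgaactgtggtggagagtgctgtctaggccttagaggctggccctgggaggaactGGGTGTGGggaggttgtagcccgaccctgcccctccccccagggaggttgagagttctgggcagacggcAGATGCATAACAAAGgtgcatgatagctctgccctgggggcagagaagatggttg
Klf5 downstream, chr14:99355311-99355610: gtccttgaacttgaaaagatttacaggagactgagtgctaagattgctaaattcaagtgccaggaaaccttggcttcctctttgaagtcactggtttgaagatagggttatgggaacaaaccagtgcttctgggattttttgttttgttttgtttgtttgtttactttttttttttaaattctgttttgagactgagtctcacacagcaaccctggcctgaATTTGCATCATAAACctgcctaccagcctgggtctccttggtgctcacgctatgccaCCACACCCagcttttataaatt

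CTCF matches were more frequent in the near-gene intergenic peaks than in intronic peaks and in gene-desert peaks. In the 200 bp around the centre, 10.9% of them had a CTCF match (2785 peaks, 10.5 to 11.3). The share was 9.30% in distal intronic peaks and 6.22% in gene-desert peaks. The odds ratio was 1.19 against intronic peaks (1.13 to 1.26, exact adjusted p = 6.99e-10) and 1.84 against gene-desert peaks (1.67 to 2.02, exact adjusted p = 2.75e-39). With only peaks of at least 300 bp kept, it was 1.09 against intronic peaks (1.02 to 1.16, exact adjusted p = 0.0341). Against gene-desert peaks it was then 1.78. These and the following comparisons of shares are two-sided Fisher's exact tests per motif with the Benjamini-Hochberg adjustment over 20 tests, from 10 motifs in 2 comparisons. As background, all 3083347 windows of 200 bp in the same intergenic sequence that touched no listed peak were searched, and 0.439% of them held a CTCF match, so that the share in peaks was 24.8 times as high. With these windows weighted to the GC content of the peaks, it was 17.8 times as high.

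Against intronic peaks, CTCF was the only one of the 10 motifs that passed the test. KLF was found in 5.21% of the near-gene intergenic peaks and in 5.58% of intronic peaks (odds ratio 0.931, exact adjusted p = 0.161), and it passed as the lower share when only peaks of at least 300 bp were kept (0.860) or when GC was stratified (0.904). The OCT octamer was found in 1.32% and 1.17% (1.12, interval 0.974 to 1.30), and it passed as the higher share within strata of distance to the TSS (1.24) and when whole peaks were searched (1.16). AP-1 also passed as the higher share when whole peaks were searched (1.12). A whole-peak search covered more sequence in the near-gene intergenic peaks, whose median width was 382 bp, against 340 bp in introns. The part of width in these whole-peak results was not tested. For OCT4::SOX2 the shares were 0.664% and 0.714%, with an odds ratio of 0.930 whose interval ran from 0.766 to 1.13.

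Against gene-desert peaks, KLF was the other motif with a higher share, at 5.21% against 3.50% (odds ratio 1.51, 1.34 to 1.72, exact adjusted p = 2.32e-10). Both motifs that OCT4 reads had lower shares near genes. The octamer was found in 1.32% of the near-gene peaks and in 1.98% of the gene-desert peaks (0.662, 0.551 to 0.795, exact adjusted p = 9.15e-05). OCT4::SOX2 was found in 0.664% and 0.977% (0.678, 0.523 to 0.878, exact adjusted p = 0.0165), and this difference did not pass when GC was stratified (0.815), when whole peaks were searched (0.846) or when at most 1 mismatch was allowed (0.626). GC differed between the classes, with medians of 49.5% near genes and 46.0% in gene deserts.

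**Figure D1:**
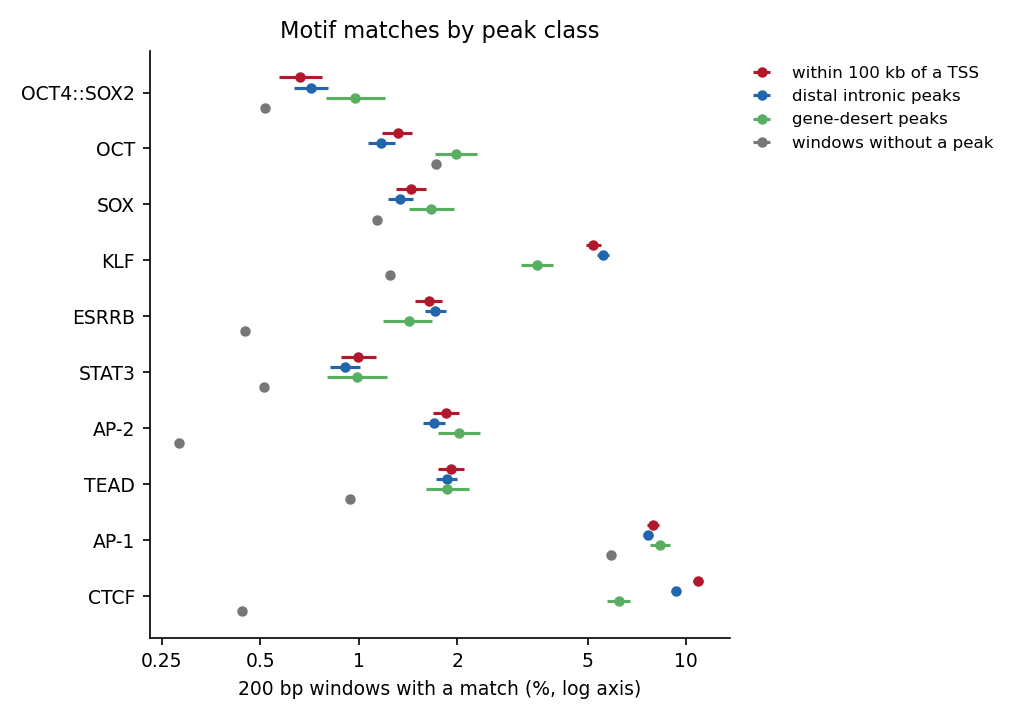
Share of 200 bp windows around peak centres with a match to each motif (percent, log axis) for intergenic peaks within 100 kb of a protein-coding TSS, distal intronic peaks, gene-desert peaks and intergenic windows without a peak. Bars are 95% Wilson intervals. CTCF shows the widest separation, 10.9% in near-gene peaks, 6.22% in gene-desert peaks and 0.439% in windows without a peak.

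Relative to the surrounding sequence, the other motifs differed in how much GC weighting mattered. It changed the ratios of AP-2, KLF, the OCT octamer and OCT4::SOX2 most. AP-2 was found in 1.85% of peaks and 0.283% of windows without a peak, a ratio of 6.52, or 3.41 with GC weighting. ESRRB was found in 1.64% and 0.449%, a ratio of 3.65, or 3.39 with weighting. KLF had a ratio of 4.17, or 2.38 with weighting.

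TEAD (1.91% of peaks) had a ratio of 2.04, or 2.35 with weighting, STAT3 (0.997%) of 1.94 or 1.85, and SOX (1.44%) of 1.26 or 1.47. AP-1, the commonest after CTCF at 7.91% of peaks, had a ratio of 1.34, or 1.46 with weighting. The direction of the OCT octamer turned with the background. It was rarer in peaks (1.32%) than in windows as they were (1.72%), a ratio of 0.767, and commoner than in windows weighted to the GC of the peaks (1.04%), a ratio of 1.27. OCT4::SOX2 likewise went from a ratio of 1.29 to 2.12. At least 1 of the 10 motifs was found in 30.3% of the near-gene intergenic peaks, and at least 2 in 3.29%.

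The matches differed in how they were placed within the peaks. In the central 50 bp, CTCF matches were 20.5 times as dense as at 400 to 500 bp from the centre. AP-2 matches were 6.16 times as dense, KLF 3.11 times, SOX 2.45 times, ESRRB 2.38 times, TEAD 2.22 times and STAT3 1.87 times. OCT4::SOX2 (1.63 times), AP-1 (1.41 times) and the octamer (1.11 times) were the least concentrated. Of the 2732 peaks with exactly 1 CTCF match in the window, 31.7% had it in the central 50 bp (29.9 to 33.4). These matches lay in the 200 bp window by definition, so even placement there would also put a share in its central 50 bp. That baseline was not computed, and the 31.7% is no measure of centring by itself.

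**Figure D2:**
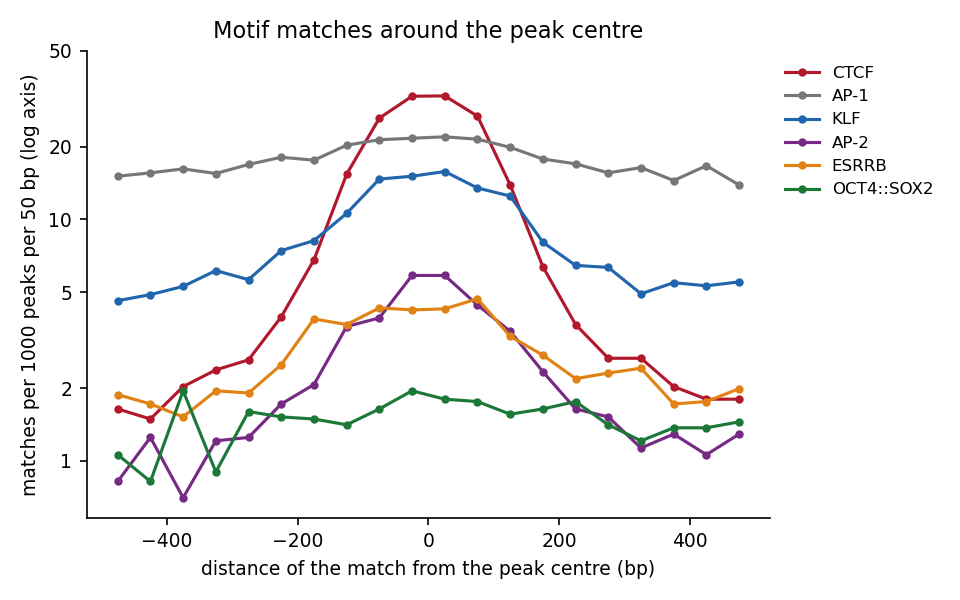
Motif matches per 1000 near-gene intergenic peaks in steps of 50 bp (log axis) against the distance of the match from the peak centre in bp. The CTCF line goes from 1.49 to 1.80 matches per 1000 peaks at 400 to 500 bp up to 32.4 and 32.5 beside the centre, and the AP-1 line from 13.9 to 16.7 up to 21.7 and 22.0.

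Peaks with a CTCF match differed from the rest in several features, given here as a description. Their median width was 439 bp (428 to 448), against 374 bp without a match (370 to 380). Their centre base was soft-masked in 15.1% of cases, against 23.4%, while the median GC was 49.5% in both. The shares with another motif were lower in each case given here. KLF was found in 2.08% of the peaks with CTCF (1.61 to 2.68) and in 5.60% of those without, ESRRB in 0.431% and 1.78%, AP-2 in 0.682% and 1.99%, OCT4::SOX2 in 0.359% and 0.702%, and AP-1 in 5.49% and 8.20%. For KLF and TEAD the order was the other way, and 9.41% of peaks with TEAD also had KLF (7.13 to 12.3), against 5.13% of those without TEAD.

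The direction of the CTCF motif was taken relative to genes and to the next CTCF peak, as a description. Of the 2732 peaks with 1 match, 46.3% had a match that pointed towards the nearest protein-coding TSS (44.5 to 48.2), and the others pointed away. The share was 50.0% at 1 to 10 kb from the TSS (46.3 to 53.7), 47.2% at 10 to 25 kb, 43.7% at 25 to 50 kb and 42.6% at 50 to 100 kb (38.2 to 47.2). Among 719 pairs of successive CTCF peaks of this kind at most 100 kb apart, 45.3% had both motifs in the same direction. The motifs pointed away from each other in 34.5% (31.1 to 38.0) and towards each other in 20.2% (17.4 to 23.3). Pairs were taken among the intergenic peaks alone, and CTCF matches in promoters or gene bodies between them were not considered.

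The near-gene intergenic peaks were not spread evenly over the sequence open to them. The rule left 634 Mb of assembled sequence outside gene bodies, more than 1000 bp from any TSS and at most 100 kb from a protein-coding TSS, and its peaks had a density of 40.4 per Mb (39.9 to 40.9). The density was 46.0 per Mb at 1 to 10 kb from the nearest protein-coding TSS (6113 peaks), 50.6 at 10 to 25 kb (7834 peaks), 39.3 at 25 to 50 kb (6248 peaks) and 28.8 at 50 to 100 kb (5380 peaks). The nearest bin was thus 1.60 times as dense as the farthest (1.54 to 1.66, two-sided exact conditional binomial test, p = 1.71e-139). The centre of 14 further peaks was over 100 kb away although their edge was within it. Within the limit the density did not fall steadily with distance. It was 33.9 per Mb at 1 to 2 kb (31.0 to 36.9) and 37.3 at 2 to 5 kb, highest at 5 to 10 kb (54.4, 52.7 to 56.1) and 10 to 15 kb (53.8), and lowest at 70 to 100 kb (26.3, 25.4 to 27.4). The rule keeps a peak by the distance of its edge from every TSS, whereas the bins use its centre. Sequence just beyond 1000 bp was counted as eligible but could hold no centre (lowest centre distance 1078 bp). The low value at 1 to 2 kb is thus partly set by the rule, to an extent that was not tested.

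**Figure D3:**
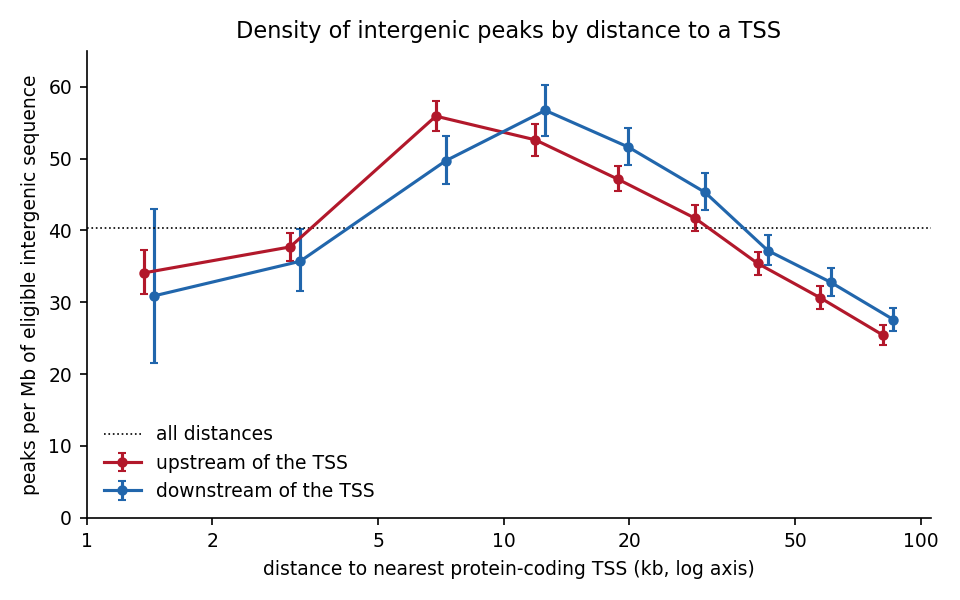
Near-gene intergenic peaks per Mb of eligible intergenic sequence against the distance to the nearest protein-coding TSS (kb, log axis), upstream and downstream of that TSS. Bars are 95% exact Poisson intervals and the dotted line is 40.4 per Mb, the density over all distances. Upstream density is highest at 5 to 10 kb (55.9 per Mb) and downstream density at 10 to 15 kb (56.7 per Mb).

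The median distance to the nearest protein-coding TSS was 22074 bp, with quartiles of 10395 and 44513 bp. Of the peaks, 60.5% had a TSS of a transcript that was not protein-coding nearer than that, and 99.2% did not touch any gene body. Both limits of the rule apply to the nearest edge of a peak, whereas the median and quartiles are for its centre. By edge, the peaks just inside the limit lay at 99977, 99946 and 99944 bp, next to Zfp369, Klf3 and Tacr1, and those just outside at 100003, 100047 and 100074 bp. At the other limit, the nearest peaks kept were 1001 bp from a TSS, and the nearest left out were 1000 bp from one.

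Upstream and downstream sides of the TSS were compared because the rule is blind to orientation. Of the peaks, 66.4% were upstream of the nearest protein-coding TSS (65.8 to 67.0), and most of the eligible sequence was upstream too. Per Mb the density was 40.4 upstream and 40.2 downstream, a ratio of 1.01 (0.979 to 1.03, exact p = 0.706). Within strata of distance, an analysis added after the data were seen, the ratio was 0.948 (0.923 to 0.973, Mantel-Haenszel). At 10 to 25 kb there were 49.3 per Mb upstream and 53.4 downstream, and at 50 to 100 kb 27.9 and 30.0, whereas at 1 to 10 kb the order was the other way (46.3 and 44.9).

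Sequence between divergent genes, which both start at the interval, was compared with sequence between convergent genes, which both end there. The densities were 41.6 and 43.0 per Mb, a ratio of 0.967 (0.932 to 1.00, exact p = 0.0741). Within strata of distance the ratio was 0.904 (0.870 to 0.938, Mantel-Haenszel). The lower density between divergent genes held at each distance, from 49.1 against 54.3 per Mb at 1 to 10 kb to 28.0 against 31.3 at 50 to 100 kb. Sequence between tandem genes had 38.9 per Mb.

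The X chromosome had 8.93 near-gene intergenic peaks per Mb of its eligible sequence, against 45.1 on the autosomes, a ratio of 0.198 (0.180 to 0.216, exact conditional binomial interval). Among the autosomes the density ran from 36.0 per Mb on chromosome 14 to 63.6 on chromosome 11. The Y chromosome had 22 peaks, or 0.923 per Mb. Eligible sequence was all assembled bases, with no allowance for chromosome copy number or for how uniquely reads can be placed. The part of either in the values for X and Y was not tested.

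The motif content of the peaks also varied with distance. CTCF was found in 11.7% of peaks at 1 to 10 kb, 12.3% at 10 to 25 kb, 10.3% at 25 to 50 kb and 8.61% at 50 to 100 kb. The nearest bin exceeded the farthest with an odds ratio of 1.41 (1.25 to 1.60, Fisher's exact test, exact p = 3.39e-07 after adjustment over 10 motifs). KLF was found in 5.86% of the nearest and 4.70% of the farthest peaks (1.26, 1.07 to 1.49, exact adjusted p = 0.0298). That difference did not pass once peaks under 300 bp (1.16), peaks that were mostly repeats (1.24) or windows with 20% or more of soft-masked bases (1.16) were left out, or when GC was stratified (1.21).

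The other 8 motifs did not pass this test. OCT4::SOX2 was found in 0.556%, 0.638%, 0.672% and 0.818% of peaks from the nearest to the farthest bin, with an odds ratio of 0.678 and an interval of 0.433 to 1.06. STAT3 had shares of 0.785% and 1.15% in the nearest and farthest bins (0.679, exact adjusted p = 0.181). AP-1 was found in 7.46% and 8.12%, and AP-2 in 1.90% and 1.71%. The median GC was 50.0% in the nearest bin and 49.0% in the farthest.

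**Figure D4:**
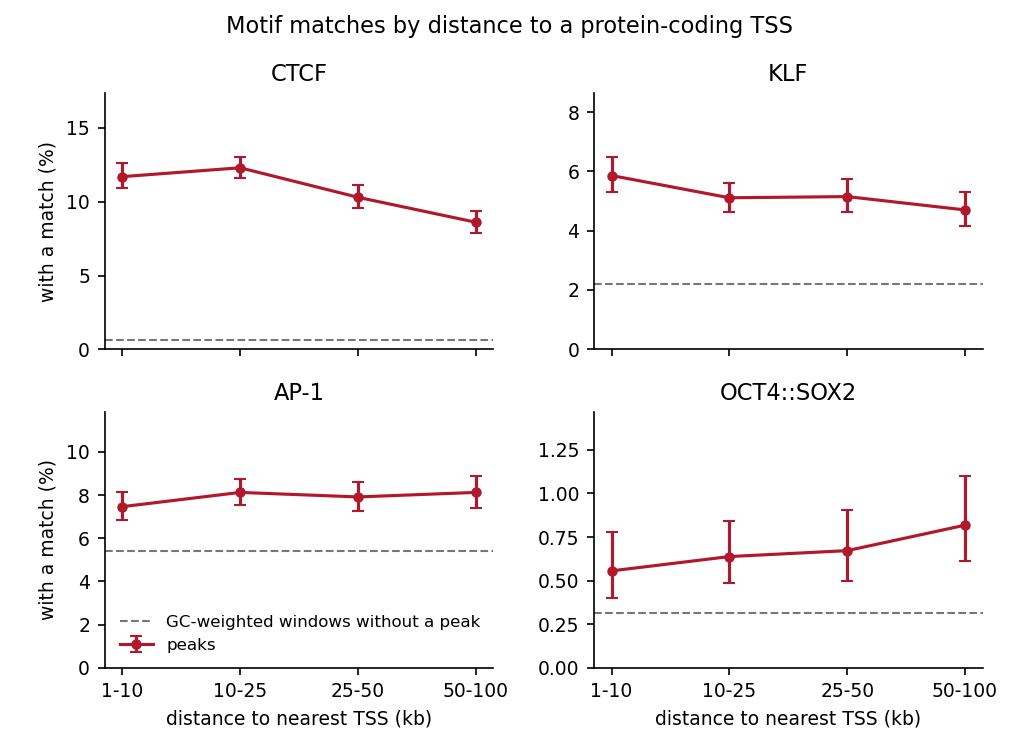
Share of near-gene intergenic peaks with a match in the central 200 bp (percent, from 0) for CTCF, KLF, AP-1 and OCT4::SOX2 in 4 bins of distance to the nearest protein-coding TSS (kb). Bars are 95% Wilson intervals and the dashed line is the share in GC-weighted windows without a peak. CTCF runs from 12.3% at 10 to 25 kb to 8.61% at 50 to 100 kb, and OCT4::SOX2 from 0.556% to 0.818% with overlapping intervals.

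In shape, the near-gene intergenic peaks were wider than the distal intronic and the gene-desert peaks. Their median width was 382 bp (377 to 386), against 340 bp in introns and 322 bp in gene deserts. Peaks under 300 bp made up 37.8% of them, 43.6% of intronic peaks (odds ratio 0.788, exact adjusted p = 1.95e-46) and 46.8% of gene-desert peaks (0.691, exact adjusted p = 3.04e-49). Peaks of at least 1000 bp made up 5.20%, 3.49% and 4.59% (odds ratios 1.52, exact adjusted p = 4.53e-25, and 1.14, exact adjusted p = 0.0245). Merging over 16 libraries joins overlapping peaks, how many libraries each peak came from is unknown, and the part of merging in these widths was not tested.

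In sequence, at least 50% of the central 200 bp was G or C in 47.7% of the near-gene peaks, 44.9% of intronic peaks (1.12, exact adjusted p = 4.23e-12) and 31.1% of gene-desert peaks (2.02, exact adjusted p = 2.39e-166). The centre base was soft-masked in 22.5%, against 19.6% in introns (1.20, exact adjusted p = 5.28e-19) and 31.0% in gene deserts (0.648, exact adjusted p = 1.01e-54). All 8 of these Fisher's exact tests passed the threshold of 0.05 after adjustment over the 8. In windows of the same intergenic sequence without a peak, 42.6% of centre bases were soft-masked and the median GC was 42.0%.

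The 5 widest peaks were next to vomeronasal receptor genes or at the first assembled megabases of a chromosome, and 48.5 to 67.0% of their bases were soft-masked. The widest, 6359 bp, lay on chromosome 4 (3080137 to 3086495) nearest to Vmn1r2, and the next, 5165 bp, on the same chromosome (3177761 to 3182925) nearest to Vmn1r3. The others lay nearest to Sfi1 (4331 bp, chromosome 11, 3100425 to 3104755), Vmn1r77 (4125 bp, chromosome 7, 12010413 to 12014537) and Scaf8 (4081 bp, chromosome 17, 3028783 to 3032863). At least 80% of the bases were soft-masked in 1368 peaks.

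Most of the peaks had close neighbours. Another near-gene intergenic peak lay within 10 kb of 69.4% of them, and a peak of any kind within 10 kb of 81.3%. These shares were not set against other classes of peaks or against even placement. They are no measure of clustering by themselves. Joined across gaps of up to 10 kb, the 25589 peaks formed 13449 runs, of which 58.3% were single peaks and 72 held 10 peaks or more. Runs of at least 5 held 22.3% of the peaks.

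The longest run, 20 peaks over 82523 bp on chromosome 1 (86430056 to 86512578), lay between Tex44 and Ptma, the gene of the chromatin-associated protein prothymosin alpha, and 4 of its peaks had a CTCF match. This and the following counts of matches in runs, intervals and peaks of a gene were made over whole peaks, where 16.2% of all near-gene intergenic peaks had CTCF, 9.55% KLF, 3.35% ESRRB, 3.33% AP-2 and 1.50% OCT4::SOX2. The next run, 18 peaks over 23751 bp on chromosome 7 (64064680 to 64088430) between Klf13 and Trpm1, had no CTCF match, and a median of 53.5% of the bases of its peaks were soft-masked. A run of 17 on chromosome 14 (121387623 to 121451545) lay between Stk24 and Slc15a1. Runs of 16 lay between Trim27 and Gpx5, Rap2a and Ipo5, Ripor3 and Pard6b, and Sgsm1 and Wscd2.

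Between neighbouring protein-coding genes, 42.7% of 19057 intervals held at least 1 peak and 389 held 10 or more. The interval with the most, 40 peaks over 196045 bp, lay between Prl2c3 and Prl2c2 on chromosome 13, members of the prolactin family of placental hormones. Of its peaks 2 had a CTCF match and none had KLF. Peaks over near-identical gene copies may share reads, and how reads with several placements were treated is not given in the sources used here.

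Each peak was assigned to the gene of its nearest protein-coding TSS. Of 21878 protein-coding genes, 41.7% had at least 1 peak, 7.02% at least 5 and 1.28% at least 10, and the median was 0. Ywhaz, a 14-3-3 adaptor gene, had the most with 26, followed by its neighbour Zfp706 with 25. Ipo5, which encodes a nuclear import receptor, and Prl2c3 had 24 each, and Zfp217 had 23. Klf5, S1pr1 (a sphingosine phosphate receptor), Sik1 (a salt-inducible kinase), Smad7 (an inhibitor of TGF-beta signalling), Spry2 (an inhibitor of receptor tyrosine kinase signalling) and Tfap2c had 22 each.

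All 20 genes of the pluripotency list had at least 1 near-gene intergenic peak, 120 in all, with a median of 5.50 per gene, against a median of 0 over all genes. Per Mb of eligible sequence nearest to these genes there were 105 peaks, against 40.4 over all genes. The 10 trophoblast genes had 70 peaks, a median of 4.00 and 94.4 per Mb. Medians were 2.50 for 8 endoderm genes, 3.00 for 8 mesoderm genes, 3.00 for 8 neural genes and 0 for 10 adult tissue genes, and these lists had 34.8, 44.3, 42.2 and 21.9 peaks per Mb. The lists are short and were chosen by the names of the genes, with earlier results of these data known. No test was made on them. Counting instead the peaks within 50 kb of any TSS of a gene gave medians of 5.50 for pluripotency, 7.00 for trophoblast, 1.50 for endoderm, 3.00 for mesoderm, 2.00 for neural, 1.50 for adult tissue and 1.00 over all genes. With only peaks of at least 300 bp counted, the nearest-gene medians were 3.00 for pluripotency, 4.00 for trophoblast and 0 for adult tissue and over all genes. The order of the pluripotency and trophoblast medians turned with the way of counting, and no expression was measured. Cell identity is therefore not read from these counts.

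**Figure D5:**
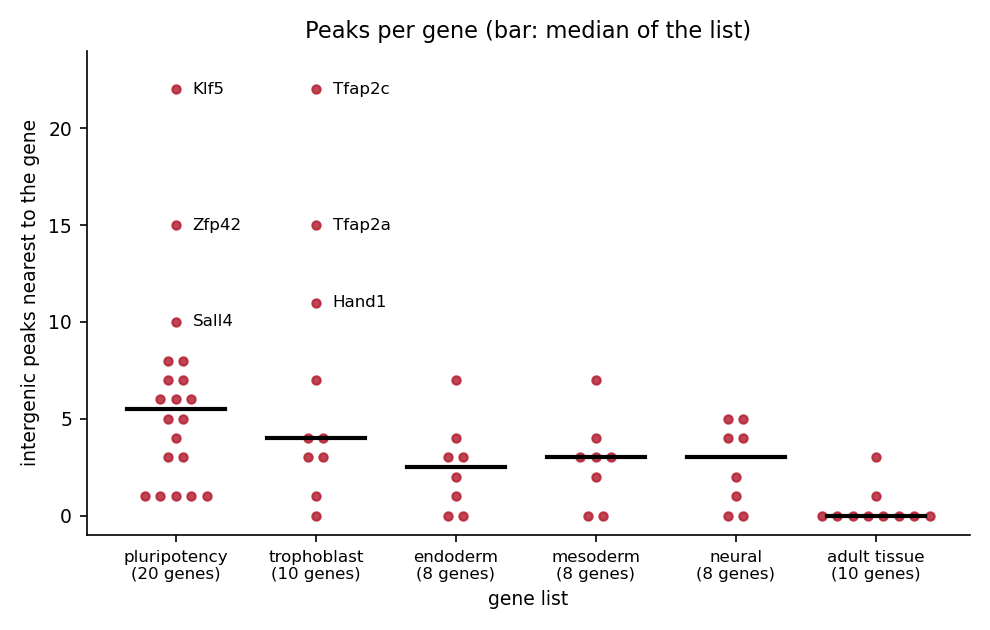
Number of near-gene intergenic peaks nearest to each gene of 6 lists, with 1 point per gene and a bar at the median of the list. Klf5 and Tfap2c stand highest with 22 peaks each, the pluripotency median is 5.50, and 8 of the 10 adult tissue genes are at 0.

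Of the pluripotency genes, Klf5 had 22 peaks, from 98778 bp downstream to 36388 bp upstream of its TSS, and 17 of them were downstream. Of these 22, 3 had a KLF match, 2 an OCT4::SOX2 match and 2 an AP-2 match. TEAD matches lay in the peaks 32196 and 20805 bp upstream and 64942 and 97876 bp downstream. Over all near-gene intergenic peaks, 3.70% had TEAD by whole peak. The octamer, ESRRB, STAT3 and AP-1 also had matches in peaks of Klf5. Zfp42 had 15 peaks, and 3 of them had a CTCF match. Sall4, a zinc finger factor of the naive network, had 10, all upstream, and Tbx3 had 8, all downstream. Prdm14, which keeps FGF signalling and DNA methylation low in naive cells, had 8. Sox2 had 7 intergenic peaks, all 37787 to 94913 bp downstream, and none had an OCT4::SOX2 or CTCF match. Peaks in gene bodies or beyond 100 kb were left out by the rule, so such counts do not cover all peaks around a gene.

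Nanog had 6 peaks, of which the widest (1101 bp) lay 4798 bp upstream on chromosome 6 (122702141 to 122703241) and held none of the 10 motifs. Over all near-gene intergenic peaks, only 30.3% held at least 1 motif in the central 200 bp. The share over whole peaks is not given. Dppa3, the neighbour of Nanog, had 7. Pou5f1 had 5 peaks, all upstream within 15533 bp, 1 of them with OCT4::SOX2 and 1 with CTCF. Klf2 had 6 and Klf4 had 5, all of the latter downstream, from 5970 to 56085 bp. Tfcp2l1, Lefty1, Nr0b1, Utf1 and Tdgf1 had 1 each.

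Of the trophoblast genes, Tfap2c (the AP-2 gamma gene) had 22 peaks over both sides, of which 4 had KLF, 2 ESRRB and 1 AP-2. Tfap2a had 15 and Hand1, a bHLH factor of giant cells, had 11, of which 3 had a CTCF match and 1 an OCT4::SOX2 match. Gata3 had 7, Eomes 4 and Cdx2 3, and Elf5 had none. Of the adult tissue genes, Myl2 (cardiac myosin light chain) had 3 peaks and Elane (neutrophil elastase) 1, and those with none included Alb, Ins2, Myh6, Gcg, Umod and Prm1. The eligible sequence nearest to a gene was 0 for Myh6 and Prm1, so a count of 0 there says little.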

How the data were processed

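ATAC-seq was performed by the authors in 20 libraries of 10 groups. Reads were aligned to GRCm38 with STAR 2.6.1c, duplicates were removed with Picard, and peaks were called with MACS2 2.1.1.20160309 in paired-end mode. Peaks of the 16 dox-treated libraries were merged with BEDTools. The deposited file holds only the chromosome, start and end of each peak. The methods name a filter on peaks over 5 kb, yet 7 listed peaks, 2 of them analysed here, were over 5000 bp, and removal of input and blacklisted regions could not be tested.

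GENCODE M21 gave 132629 TSS, of which 54363 were protein-coding. Sequence and soft-masking came from the RefSeq GRCm38.p6 genome. Motif windows were 200 bp. Rates were compared by exact conditional binomial tests, shares by Fisher's exact tests with Benjamini-Hochberg adjustment. The named genes were those of the 6 lists and the 10 with the most peaks, with ties. The peaks and lists were chosen with earlier results of these data known. Functions were tested on simulated data. The tools were scipy 1.17.1 for the tests, numpy 2.4.6 and pandas 2.3.3 for tables, and matplotlib 3.10.9 for figures, under Python 3.11.15.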

Additional observations from a re-analysis of the deposited data

How the results depend on the processing

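No paired analysis was possible because the deposited list pools all dox-treated libraries and gives no value per library. Of 244 values recomputed under alternatives, 190 stayed within the bound set for their kind, which was the same direction and side of the threshold for a test, a factor of 1.5 for a count or a ratio to windows, and the interval of the value for a median or share. A minimum width of 300 bp left 15910 near-gene intergenic peaks, and spacing within 5000 bp in place of 10000 bp gave 53.1%. The higher density at 1 to 10 kb than at 50 to 100 kb, the lower density on X and the higher share of CTCF in all 3 comparisons kept direction and passed under each alternative run for them, and so did the KLF and octamer differences from gene-desert peaks. The CTCF odds ratio against intronic peaks was smallest with peaks of at least 300 bp, at 1.09 with an interval of 1.02 to 1.16. The density ratio upstream against downstream turned to 0.992 with only protein-coding gene bodies excluded and to 0.948 within distance strata. The ratio between divergent and convergent intervals passed in the same alternatives, at 0.962 and 0.904. The distance strata, GC-weighted windows, a nearest bin from 2 kb and autosomes alone were chosen after the data were seen.

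Against intronic peaks, 1 motif passed, and 2 passed with peaks of at least 300 bp, 3 with whole peaks, 2 with GC strata and 2 with distance strata. Against gene deserts 4 passed, and SOX was added with little-masked windows (0.727, lower) and ESRRB with whole peaks (1.22, higher). Whole-peak searches covered more sequence in the near-gene peaks, which were wider than intronic and gene-desert peaks. From the nearest to the farthest bin 2 motifs passed, and 1 passed with peaks of at least 300 bp, without very wide or mostly masked peaks, with little-masked windows and with GC strata. Odds ratios of motifs that did not pass turned direction as follows. With peaks of at least 300 bp, they were 0.958 for STAT3 and 0.928 for TEAD against introns, 0.914 for ESRRB, 0.863 for STAT3 and 0.901 for TEAD against gene deserts, and 1.01 for SOX and 0.957 for AP-2 between near and far. Without very wide or masked peaks, STAT3 was 0.956 and TEAD 0.953 against gene deserts. With whole peaks, OCT4::SOX2 was 1.10, KLF 1.03 and ESRRB 1.09 against introns, AP-2 1.06 and AP-1 1.08 against gene deserts, and the octamer 0.860 between near and far. With little-masked windows, the octamer was 0.935, AP-2 0.916 and TEAD 0.985 against introns, and ESRRB 0.836, STAT3 0.878 and TEAD 0.891 against gene deserts. With GC strata STAT3 was 0.952 against gene deserts. With GC-weighted windows the octamer's ratio to the surrounding sequence was 1.27. The cause of these turns was not tested. No depth or score limits can be given for single peaks.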
